A study of Homo sapiens with 6 samples.

Results

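The 8 genes described here encode enzymes and binding proteins that take microtubules apart: the severing ATPases KATNA1, KATNAL1, SPAST and FIGNL1, the stathmins STMN1 and STMN3, and the kinesin-13 motors KIF2A and KIF2C. They were chosen by name for this function, though with earlier results of these data known. All 8 were found among the 60624 genes of the deposited expression table, and all 8 were among the 14778 genes whose mean reached 1 transcript per 1000000 (TPM), which were the genes tested. The samples were A549 cells, an established line of human lung adenocarcinoma, sequenced as 3 siCTR samples, which received a control small interfering RNA (siRNA), and 3 siCEP20 samples, in which the centrosomal protein gene CEP20 was knocked down by siRNA. Both groups were transfected for 3 days per the labels, and the cells carried no other stated alteration. The labels and the study's methods differ on the culture medium, the RNA kit and the RNA input, and one label field names a plasmid. The sources used here do not state which CEP20 siRNA went into the sequenced samples. The methods speak in general of 3 independent experiments, but the labels do not say whether the 3 sequenced samples of a group came from separate cultures, so the spread behind the p-values may be technical.

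Microtubules are polymers of tubulin dimers that grow and shrink at their ends. Katanins, spastin and fidgetin-like proteins are AAA ATPases that pull tubulin out of the lattice and so cut a microtubule along its length. Stathmins bind free tubulin dimers and favour shrinkage, and kinesin-13 motors do not walk but remove tubulin from the ends. In dividing cells these activities shape the spindle, and at centrosomes and cilia they set microtubule length.

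TPM divides by transcript length and by the total of the library, so it allows levels of different genes to be compared but keeps no record of sequencing depth, which is unknown here. CEP20 was at 51.4% of its siCTR level in the siCEP20 samples, with every siCEP20 value below every siCTR value. Epithelial identity, though not lung origin, was checked with 7 epithelial and A549 marker genes, all detected in every library. Their summed level was 8240 to 8520 TPM in siCTR samples and 9450 to 9720 TPM in siCEP20 samples. Keratins made up most of this sum. Of the 7, 5 were higher in siCEP20 samples, while the aldo-keto reductase genes AKR1C1 (log2 fold change -0.33, limma adjusted p = 0.00190) and AKR1B10 (-0.18, adjusted p = 0.0163) were lower, and EPCAM was low, from 0.834 to 1.24 TPM with siCTR. Of 12 markers of leukocytes, endothelium and fibroblasts, 9 were under 1 TPM in every library and 3 were at 0 throughout. The other 3, COL1A1, ACTA2 and CD68, were higher in siCEP20 samples (CD68 not when siCTR replicate 1 was left out), and the summed level of the 12 went from 43.1 to 53.7 TPM in siCTR samples to 111 to 129 TPM in siCEP20 samples. The part of these markers in the results below was not tested. In bulk RNA, fewer cells of a type and less RNA per cell cannot be told apart.

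Each gene was compared between groups on the log2(TPM + 1) scale with limma, and p-values were adjusted over all tested genes by the Benjamini-Hochberg method. Fold changes on this scale understate those of genes with low TPM. Over all tested genes the median of the siCEP20 to siCTR difference was 0.13 on the log2 scale, and rescaling the libraries by the median of ratios brought it to 9.4e-05, so changes are also given relative to this all-gene median.

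Among the severing and depolymerizing factors, the kinesin-13 gene KIF2A and the stathmin gene STMN1 were higher in siCEP20 samples, and the stathmin gene STMN3 was lower. The STMN1 call was lost in 11 of 17 alternative ways of processing the data, while KIF2A and STMN3 passed in all 17. The other 5 members did not pass the test (adjusted p under 0.05). Across all tested genes 30.2% were higher and 13.2% lower by the same rule, against 2 and 1 of these 8, so the shares among the 8 are near this background. The same genes passed at an unadjusted p under 0.05. With the study's fold change thresholds added (over 1.5 or under 0.67), 11.2% of all tested genes were higher and 4.61% lower, and none of the 8 passed both the limma test and a fold threshold. The study applied these thresholds to a DESeq2 analysis, and here they were applied to log2(TPM + 1), so the shares are not comparable with the study's counts. The 2 groups did not overlap in 5 of the 8 genes, and 55.4% of all tested genes were separated in this way. The log2 fold changes ran from -0.39 to 0.52 with a median of 0.19, or 0.06 above the median of all tested genes.

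**Figure D1:**
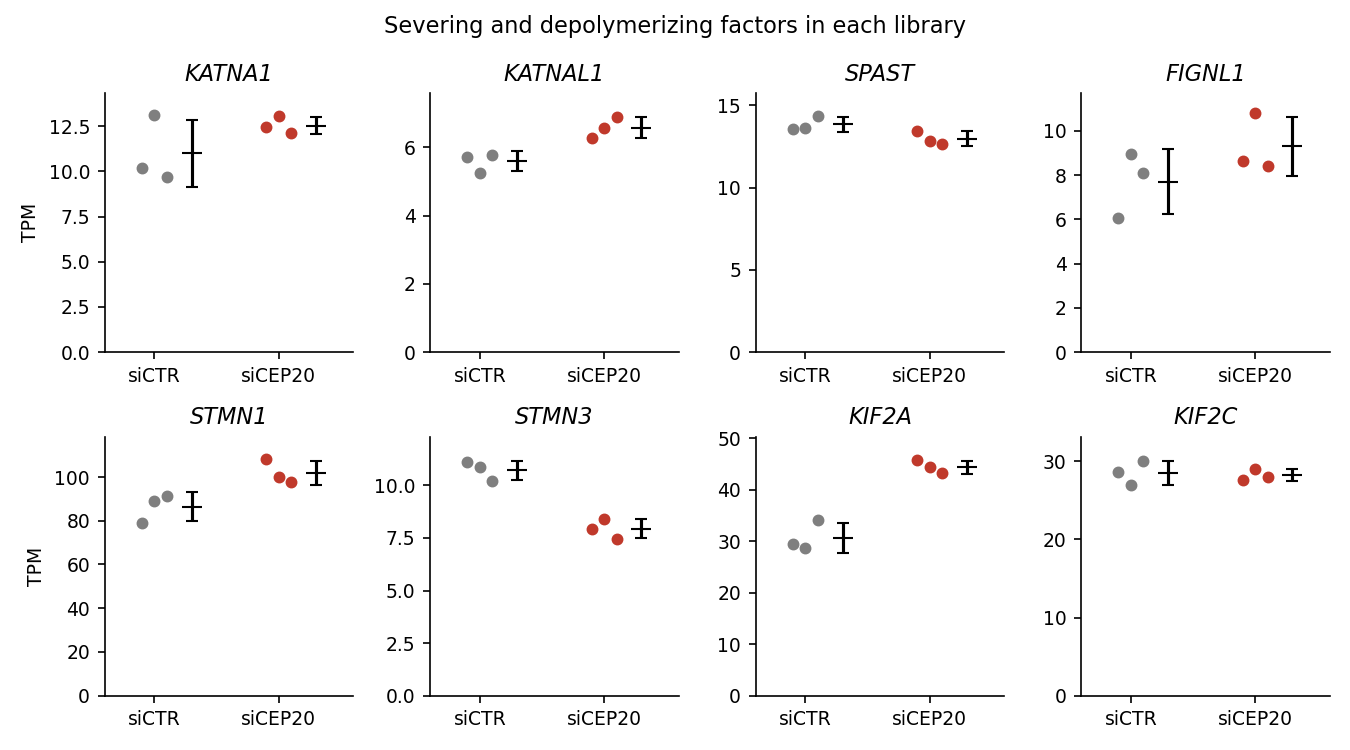
TPM of the 8 severing and depolymerizing factors in the 3 siCTR libraries (grey points) and the 3 siCEP20 libraries (red points), each panel with its own axis from 0; the black mark and bar give the group's mean and SD. KIF2A is higher and STMN3 lower in every siCEP20 library, the STMN1 groups lie closer together without overlap, and KATNA1, FIGNL1 and KIF2C overlap.

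The promoters of the 2 kinesin-13 genes and of the 2 stathmin genes are shown because these are the pairs of close relatives whose members differed most in their change. Each sequence is a RefSeq window on GRCh38.p14, read 5′ to 3′ on the gene's strand, from 250 bases before to 50 bases after an annotated start. Capitals mark matches on either strand to 3 motifs that were searched, GGGCGG for the GC box, then CCAAT for the CCAAT box and TTTGAA for the CHR element of cell cycle genes. The windows lie at chr5:62305956-62306255 (plus strand) for KIF2A, chr1:44739587-44739886 (plus strand) for KIF2C, chr1:25906370-25906669 (minus strand) for STMN1 and chr20:63652717-63653016 (minus strand) for STMN3.
KIF2A: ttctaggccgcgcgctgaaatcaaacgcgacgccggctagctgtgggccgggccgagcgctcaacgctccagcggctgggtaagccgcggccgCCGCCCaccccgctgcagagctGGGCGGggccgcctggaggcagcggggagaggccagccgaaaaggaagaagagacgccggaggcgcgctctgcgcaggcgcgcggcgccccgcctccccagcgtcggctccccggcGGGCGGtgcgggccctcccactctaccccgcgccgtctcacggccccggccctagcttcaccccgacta
KIF2C: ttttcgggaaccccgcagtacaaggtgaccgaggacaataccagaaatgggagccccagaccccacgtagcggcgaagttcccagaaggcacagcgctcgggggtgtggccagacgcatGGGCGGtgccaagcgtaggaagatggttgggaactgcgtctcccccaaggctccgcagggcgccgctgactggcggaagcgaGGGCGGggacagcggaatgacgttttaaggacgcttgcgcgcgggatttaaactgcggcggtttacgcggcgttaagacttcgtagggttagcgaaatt
STMN1: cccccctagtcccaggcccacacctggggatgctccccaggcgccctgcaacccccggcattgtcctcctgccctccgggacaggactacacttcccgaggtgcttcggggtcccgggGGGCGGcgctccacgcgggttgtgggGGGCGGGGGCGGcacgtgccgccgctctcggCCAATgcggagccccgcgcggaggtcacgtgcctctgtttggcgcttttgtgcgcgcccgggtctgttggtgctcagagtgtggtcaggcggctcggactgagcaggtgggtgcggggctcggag
STMN3: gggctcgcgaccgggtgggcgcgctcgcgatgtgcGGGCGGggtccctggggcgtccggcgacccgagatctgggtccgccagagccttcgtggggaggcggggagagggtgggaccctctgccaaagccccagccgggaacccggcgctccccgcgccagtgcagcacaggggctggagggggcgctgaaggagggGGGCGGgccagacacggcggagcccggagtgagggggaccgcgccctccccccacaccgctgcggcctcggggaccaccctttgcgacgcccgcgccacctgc

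KIF2A held 3 GC box matches and KIF2C 2, and neither window held the letters CCAAT or TTTGAA on either strand. Variants of the 3 motifs were not searched. The STMN1 window held 3 GC box matches and 1 CCAAT match, and the STMN3 window 2 GC box matches. At least 1 GC box match was found in 45.0% of all 35116 promoters of this length, a CCAAT match in 34.6% and a CHR match in 15.2%, so these matches are common. The GC content was 75.7% for KIF2A, 61.3% for KIF2C, 72.7% for STMN1 and 77.7% for STMN3. RefSeq promoter windows were found for 8 of 8 members, and STMN1 has 3 of them, of which the first is shown. A match describes the letters only and does not show that a factor binds there.

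None of the 4 severing ATPases among the 8 members passed the test. KATNA1 (ENSG00000186625, chr6:149594873-149648972 of hg38, minus strand) encodes the catalytic subunit p60 of katanin. The siCTR samples held 10.2, 13.1 and 9.69 TPM, and the siCEP20 samples 12.4, 13.04 and 12.1 TPM. The siCEP20 values lay close together near the top of a wider siCTR range, and siCTR replicate 2 exceeded all of them. The means were 11.0 ± 1.84 and 12.5 ± 0.481 TPM (SD, n = 3 each), with a log2 fold change of 0.18 (95% interval -0.09 to 0.45, limma adjusted p = 0.237). Without siCTR replicate 2 it passed as higher (0.31, adjusted p = 0.0469).

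KATNAL1 (ENSG00000102781, chr13:30202630-30307551, minus strand), which encodes a katanin-like severing ATPase, had the lowest level of the 8. Its values were 5.73, 5.25 and 5.78 TPM with siCTR and 6.27, 6.57 and 6.89 TPM with siCEP20. Every siCEP20 library was above every siCTR library, by a small margin. The means of 5.59 ± 0.296 and 6.58 ± 0.310 TPM gave a log2 fold change of 0.20 (95% interval -0.03 to 0.43, limma adjusted p = 0.138), and this sign turned once transcript length and GC content were corrected for (-0.06).

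SPAST (ENSG00000021574, chr2:32063556-32157637, plus strand) encodes spastin, the severing ATPase mutated in a common form of hereditary spastic paraplegia. The siCTR libraries gave 13.6, 13.6 and 14.4 TPM and the siCEP20 libraries 13.5, 12.8 and 12.6 TPM. The groups did not overlap, though the gap between them was narrow. From 13.9 ± 0.442 to 12.98 ± 0.439 TPM the log2 fold change was -0.09 (95% interval -0.27 to 0.09, limma adjusted p = 0.400). Relative to the all-gene median it was -0.22, and SPAST passed the limma threshold as lower where the libraries were rescaled (-0.23 with median-of-ratios scaling, adjusted p = 0.0380).

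FIGNL1 (ENSG00000132436, chr7:50444128-50450390, minus strand), a fidgetin-like ATPase also known for a role in homologous recombination, was the most scattered of the 8. It stood at 6.08, 8.95 and 8.08 TPM with siCTR and at 8.63, 10.8 and 8.42 TPM with siCEP20. The groups overlapped, and siCTR replicate 1 was the lowest library and siCEP20 replicate 2 the highest. The log2 fold change of 0.25 had a 95% interval from -0.10 to 0.60 (limma adjusted p = 0.216) around means of 7.70 ± 1.47 and 9.29 ± 1.33 TPM. It was 0.11 without siCTR replicate 1, 0.15 without siCEP20 replicate 2 and 0.05 after the length and GC correction. An adjusted p over the threshold does not show that these 4 genes stayed the same, since their intervals reach changes of up to 0.60 on the log2 scale.

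The stathmin genes moved apart. STMN1 (ENSG00000117632, chr1:25884181-25906991, minus strand) encodes stathmin 1, a tubulin-sequestering phosphoprotein that is abundant in proliferating cells and is switched off by phosphorylation in mitosis. Its level was 79.1, 88.9 and 91.5 TPM with siCTR and 108.2, 100.2 and 97.6 TPM with siCEP20. Every siCEP20 library exceeded every siCTR library, and the nearest pair was about as far apart as neighbouring libraries within a group. From 86.5 ± 6.56 to 102.0 ± 5.54 TPM it rose by 0.24 on the log2 scale (SE 0.074, 95% interval 0.07 to 0.41, limma adjusted p = 0.0320), or 0.10 relative to the all-gene median. This call was lost in 11 of 17 alternatives, among them both rescalings and the length and GC correction, with an adjusted p of up to 0.313 and a log2 fold change of 0.09 under median-of-ratios scaling. It was also lost without siCTR replicate 1 or 2 or siCEP20 replicate 1 or 2 (adjusted p between 0.0549 and 0.103).

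STMN3 (ENSG00000197457, chr20:63639705-63657682, minus strand) encodes a membrane-associated stathmin best known from neurons. It was at 11.1, 10.9 and 10.2 TPM with siCTR and at 7.94, 8.38 and 7.47 TPM with siCEP20. The groups were separated by more than the range within either of them. STMN3 fell from 10.7 ± 0.450 to 7.93 ± 0.450 TPM, which left 73.9% of the siCTR level (log2 fold change -0.39, SE 0.0900, 95% interval -0.60 to -0.19, limma adjusted p = 0.00892). Relative to the all-gene median the change was -0.53. It passed the threshold in all 17 alternatives, from -0.57 to -0.36 on the log2 scale.

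The kinesin-13 gene KIF2A had the largest rise of the 8. It (ENSG00000068796, chr5:62306162-62391025, plus strand) encodes a depolymerase that works at spindle poles and in neurites. Its values were 29.4, 28.6 and 34.0 TPM with siCTR and 45.7, 44.3 and 43.1 TPM with siCEP20. The lowest siCEP20 library stood well above the highest siCTR library. KIF2A rose from 30.7 ± 2.93 to 44.4 ± 1.27 TPM, a ratio of means of 1.45 (log2 fold change 0.52, SE 0.0808, 95% interval 0.34 to 0.71, limma adjusted p = 0.00147), or 0.39 relative to the all-gene median. It passed in all 17 alternatives, and its log2 fold change was smallest once transcript length and GC content were corrected for (0.26, adjusted p = 0.0210). KIF2A has the longest transcript of the 8 (7958 bases, 37.6% GC), and across all tested genes the log2 fold change was correlated with transcript length (Spearman's rho 0.25, across genes, which are not independent replicates).

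The exons of KIF2A share 2446 bases with those of DIMT1, a ribosomal RNA methyltransferase gene on the opposite strand, and no other member overlaps an expressed gene. The methods describe a library that marks strand with dUTP and an alignment at default settings, and do not state whether the quantification used strand, so it is not known whether reads in this stretch were told apart. DIMT1 fell, from 29.4 ± 1.74 to 24.1 ± 1.12 TPM (log2 fold change -0.28, limma adjusted p = 0.0184), the opposite direction to KIF2A.

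KIF2C (ENSG00000142945, chr1:44739818-44767767, plus strand) encodes MCAK, the kinesin-13 of mitotic centromeres that corrects wrong attachments of chromosomes. It was at 28.6, 26.9 and 30.1 TPM with siCTR and at 27.6, 29.0 and 28.0 TPM with siCEP20. All siCEP20 values lay within the siCTR range. The means were 28.5 ± 1.57 and 28.2 ± 0.753 TPM, and the log2 fold change was -0.01 (95% interval -0.18 to 0.15, limma adjusted p = 0.882). Relative to the all-gene median it was -0.15, and its sign turned when siCTR replicate 3 (0.02) or siCEP20 replicate 1 (0.00028) was left out.

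**Figure D2:**
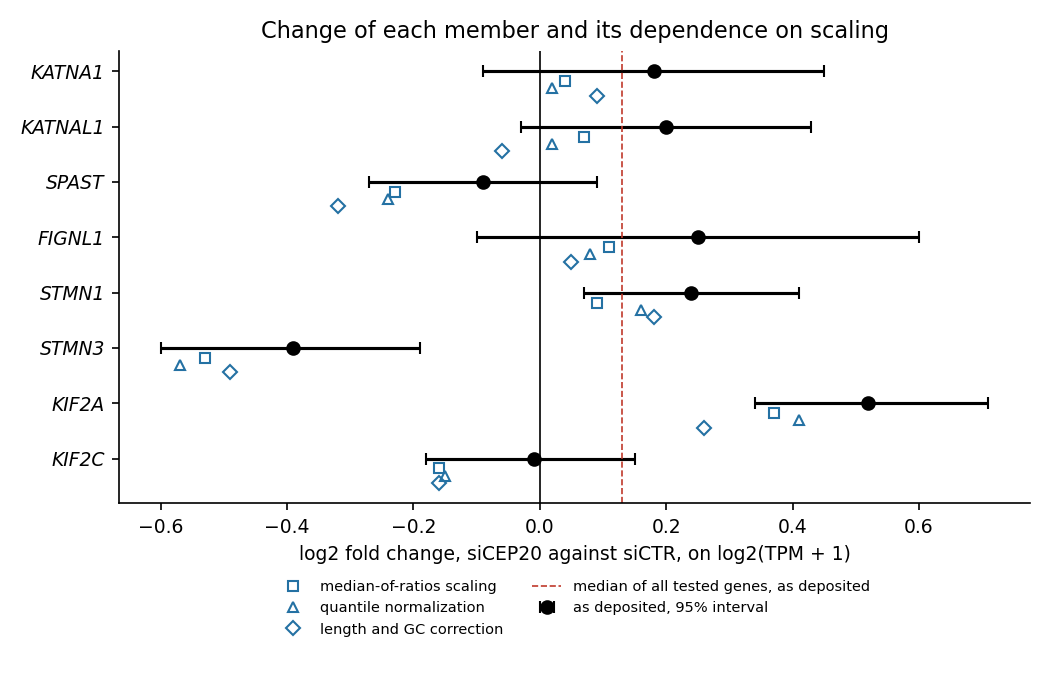
Log2 fold change (siCEP20 against siCTR, on log2(TPM + 1)) of the 8 genes, with black points and bars for the values as deposited and their 95% intervals, and open blue marks for the values after rescaling or correction; the dashed line is the median of all tested genes, 0.13. The intervals of KIF2A, STMN1 and STMN3 leave out 0, SPAST and KIF2C lie further below 0 after every rescaling, and the KATNAL1 value turns negative after the length and GC correction.

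In siCTR samples STMN1 was highest, followed by KIF2A and KIF2C, whose ranges overlapped, then SPAST, then KATNA1 and STMN3, whose ranges also overlapped, then FIGNL1 and KATNAL1. In siCEP20 samples KIF2A stood apart from KIF2C, SPAST and KATNA1 overlapped, and STMN3 had dropped below FIGNL1 to the seventh place. STMN1 was at the 87.9 percentile of mean TPM among all tested genes, KIF2A at 71.0 and KIF2C at 64.6, while the severing ATPases lay between 29.7 (KATNAL1) and 46.5 (SPAST) and STMN3 at 38.0. The 4 severing ATPases together came to 35.6, 40.9 and 37.9 TPM with siCTR and 40.8, 43.3 and 40.0 TPM with siCEP20, with overlap. The 2 kinesin-13 genes came to 58.0, 55.5 and 64.1 TPM against 73.3, 73.4 and 71.1 TPM, and the 2 stathmins to 90.2, 99.7 and 101.7 TPM against 116.2, 108.6 and 105.1 TPM. In the last 2 sums all siCEP20 libraries were above all siCTR libraries, which gives a two-sided exact permutation p = 0.1, the smallest that 3 samples against 3 allow. Of all tested genes, 55.4% were separated in either direction. The ratios of the group means were 1.23 for the kinesin-13 sum and 1.13 for the stathmin sum, without allowance for the all-gene median of 0.13 (log2). Each sum followed a single gene. STMN1 made up 86.5 of 97.2 TPM of the mean stathmin sum with siCTR and 102.0 of 109.9 TPM with siCEP20, while STMN3 fell. The kinesin-13 sum rose through KIF2A, since the KIF2C means were 28.5 and 28.2 TPM.

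Ratios of close relatives within a library do not depend on the scale between libraries. They are still open to effects of transcript length and GC content, in which relatives can differ. After the correction for these, the log2 fold changes were 0.26 for KIF2A and -0.16 for KIF2C (0.52 and -0.01 before). For STMN1 and STMN3 they were 0.18 and -0.49 (0.24 and -0.39 before). The ratios below are uncorrected. KIF2C and KIF2A were about equal in siCTR samples, with ratios of 0.972, 0.941 and 0.883, and KIF2C was at 0.604, 0.655 and 0.648 of KIF2A in siCEP20 samples. The log2 ratio went from -0.10 ± 0.071 to -0.65 ± 0.064 without overlap. STMN1 exceeded STMN3 by 7.12, 8.19 and 8.95 times in siCTR samples and by 13.6, 12.0 and 13.1 times in siCEP20 samples, again without overlap, for a log2 difference of 0.68. The KATNA1 to KATNAL1 ratio was 0.96 ± 0.31 and 0.93 ± 0.10 on the log2 scale, and the SPAST to FIGNL1 ratio 0.87 ± 0.28 and 0.49 ± 0.21, with overlap in both. In two-sided exact permutation tests of these 4 ratios, p = 0.1 was found for the kinesin-13 and stathmin pairs (0.2 after Benjamini-Hochberg adjustment), p = 0.2 for SPAST and FIGNL1 (0.267) and p = 0.9 for the katanins (0.9). With 3 samples against 3 this test cannot go below 0.1. Since STMN1 was higher and STMN3 lower in every siCEP20 library, their ratio had to separate, and its p adds nothing to the values of these genes. The share of other gene pairs whose ratios separate is not given here.

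**Figure D3:**
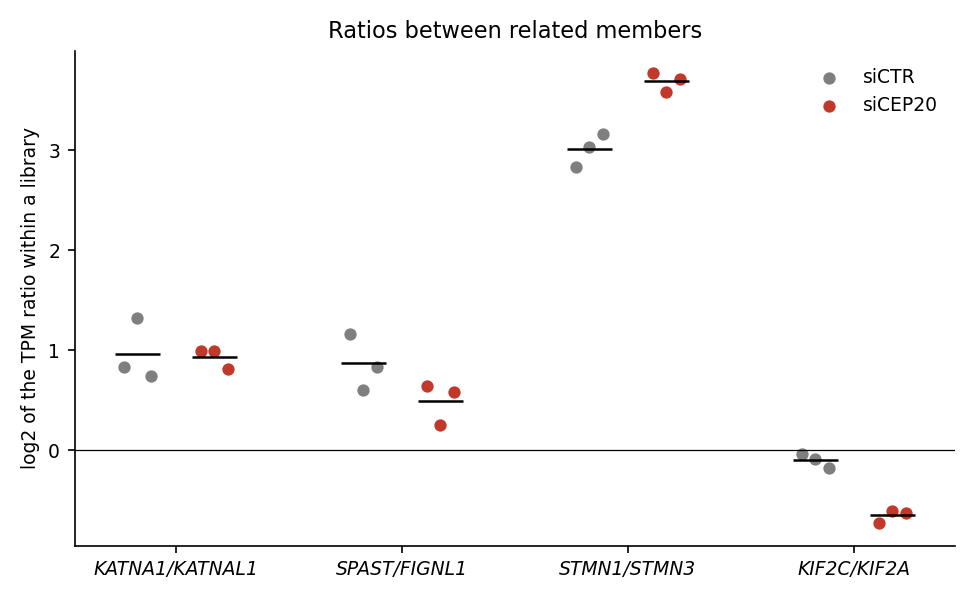
Log2 of the TPM ratio of 4 pairs of related genes within each library, with grey points for siCTR, red points for siCEP20 and a line at each group's mean. The STMN1/STMN3 points of the siCEP20 libraries (3.58 to 3.77) lie above those of siCTR (2.83 to 3.16), the KIF2C/KIF2A points lie below, and the other 2 pairs overlap.

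Several of the 8 genes are used in mitosis, and their change was therefore set beside 27 mitotic genes. Of these, 17 were higher and 1 lower in siCEP20 samples, and the median change was 0.37 on the log2 scale (0.24 above that of all tested genes). Across all tested genes, the background for this and the following lists, 30.2% were higher and 13.2% lower. These shares hold for the values as deposited. Shares of all tested genes after rescaling, correction or leaving out a library are not given here, so the list counts under those settings have no matching background. With median-of-ratios scaling 12 of the 27 were higher and 2 lower, and after the length and GC correction 11 and 1. The genes with the smallest adjusted p were the proliferation antigen MKI67 (0.93, limma adjusted p = 0.000261), the kinetochore gene CENPF (0.78, adjusted p = 0.000771) and FOXM1, which encodes a transcription factor of G2/M genes (0.58, adjusted p = 0.00108). The mean log2(TPM + 1) of the 27 went from 5.26 to 5.61, with every siCEP20 library (5.57 to 5.66) above every siCTR library (5.16 to 5.39). A gene that stays level therefore falls below this mean without overlap, as SPAST and KIF2C did, neither of which passed the limma test. The share of all tested genes separated on this measure is not given here. KIF2C, itself a mitotic gene, was 0.27, 0.43 and 0.44 below that mean in siCTR libraries and 0.76, 0.76 and 0.71 below it in siCEP20 libraries. Among the 27, only CCNB1 (-0.25, the 1 that was lower) and CDC20 (-0.04) had a lower log2 fold change than KIF2C. KIF2A gained on the mitotic mean by 0.18 without overlap, STMN3 lost 0.74 and SPAST 0.43 without overlap, and the groups overlapped for STMN1 (-0.11) and the other 3. Of 19 tested S phase genes, against the same background of 30.2% higher and 13.2% lower, 8 were higher and 0 lower by limma, with 0 lower also at an unadjusted p under 0.05 (median 0.22). The smallest adjusted p belonged to CDT1 (log2 fold change 0.69), RRM1 (0.32) and GINS2 (0.44). Under median-of-ratios scaling 5 were higher and 3 lower, after the length and GC correction 4 and 4, and without siCEP20 replicate 2 the count was 5 and 0.

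Among 16 tested subunits and partners of the severing enzymes, 6 were higher and 1 lower (median 0.25 on the log2 scale, 0.12 above that of all tested genes), beside 30.2% and 13.2% of all tested genes. ASPM, a spindle pole protein that binds katanin, rose from 3.998 ± 0.471 to 6.88 ± 0.806 TPM (log2 fold change 0.66, limma adjusted p = 0.00397). NDEL1, a dynein regulator that recruits katanin to centrosomes, rose from 79.9 ± 8.71 to 105.0 ± 6.62 TPM (0.39, adjusted p = 0.00896). KATNAL2, the remaining katanin-like ATPase, rose from 2.79 ± 0.594 to 4.94 ± 0.581 TPM (0.65, adjusted p = 0.0113), and its call was lost after the length and GC correction (0.47, adjusted p = 0.0546). The 1 lower gene was ZFYVE27, which encodes protrudin, a partner of spastin (-0.25, adjusted p = 0.0383). No partner was lower under the replicate block, without the filter on TPM, or without siCTR replicate 2 or 3 or any 1 siCEP20 replicate, so this call is not stable. With median-of-ratios scaling 3 of these partners were higher and 1 lower, after the length and GC correction 2 and 2, and 3 were higher without siCTR replicate 1 or siCEP20 replicate 2.

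Among 12 tested depolymerizing kinesins and kinesin-13 partners, 7 were higher and 0 lower by limma, with 0 lower also at an unadjusted p under 0.05 (median 0.28, which is 0.15 above that of all tested genes). The shares over all tested genes were 30.2% and 13.2%. The count of higher genes was 3 with median-of-ratios scaling, 3 after the length and GC correction and 4 without siCTR replicate 1. CCP110, the centriole cap protein that works with KIF24 to hold back cilium formation, rose from 4.82 ± 0.386 to 8.23 ± 0.348 TPM (log2 fold change 0.67, limma adjusted p = 0.00141). KIF24, a centriolar kinesin with depolymerizing activity, rose from 3.14 ± 0.326 to 5.76 ± 0.454 TPM (0.71, adjusted p = 0.00237). KIF18A, a kinesin-8 that damps plus ends at kinetochores, rose from 5.19 ± 1.15 to 9.12 ± 0.922 TPM (0.72, adjusted p = 0.00550). In all 3 the groups did not overlap. For AURKB, the centromeric kinase that restrains MCAK, the log2 fold change was -0.01 (adjusted p = 0.953). KIF2B, the remaining kinesin-13, was listed at 0 in every library.

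Of 7 tested stathmin relatives and regulators, 0 were higher and 1 lower by limma (median -0.01, or -0.14 relative to all tested genes), and 1 was higher at an unadjusted p under 0.05. The share lower is near the 13.2% of all tested genes, and 2 were lower with median-of-ratios scaling or the length and GC correction. UHMK1, a kinase that phosphorylates stathmin, was at 19.7, 23.9 and 24.7 TPM with siCTR and 15.0, 16.0 and 13.4 TPM with siCEP20. Its groups did not overlap, and it fell by 0.59 on the log2 scale (limma adjusted p = 0.00332). PAK1, another kinase acting on stathmin, did not pass (0.18, adjusted p = 0.0749) except without siCTR replicate 3 (0.24, adjusted p = 0.0323). CDKN1B, an inhibitor of cyclin-dependent kinases that binds stathmin, did not pass either (0.06, adjusted p = 0.529), and its sign turned under both rescalings. STMN2, STMN4 and STMND1 were too low to be tested. The 2 STMN1 pseudogenes with the names STMN1P1 and STMN1P2 were at no more than 0.21 TPM in any library.

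Proteins that bind or stabilize the lattice act in the other direction and were listed for comparison. Of 10 tested, 9 were higher and 0 lower by limma, adjusted or not (median 0.48, or 0.34 relative to all tested genes), where 30.2% and 13.2% of all tested genes were. After each rescaling 6 of the 10 were higher. MAP7, a coat protein that recruits kinesin-1, rose from 43.8 ± 4.41 to 89.3 ± 1.73 TPM (log2 fold change 1.02, limma adjusted p = 7.78e-05), and its rise was known when the list was written. MAP7D1, its relative, rose from 99.4 ± 8.24 to 157.9 ± 5.05 TPM (0.67, adjusted p = 0.000258), and MAP4, the main structural microtubule-associated protein of non-neuronal cells, from 122.0 ± 13.7 to 197.1 ± 4.34 TPM (0.69, adjusted p = 0.000421). MAPT, which encodes tau, was the 1 that did not pass (0.09, adjusted p = 0.879). Whether this list and the 8 severing and depolymerizing factors differ was not tested.

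**Figure D4:**
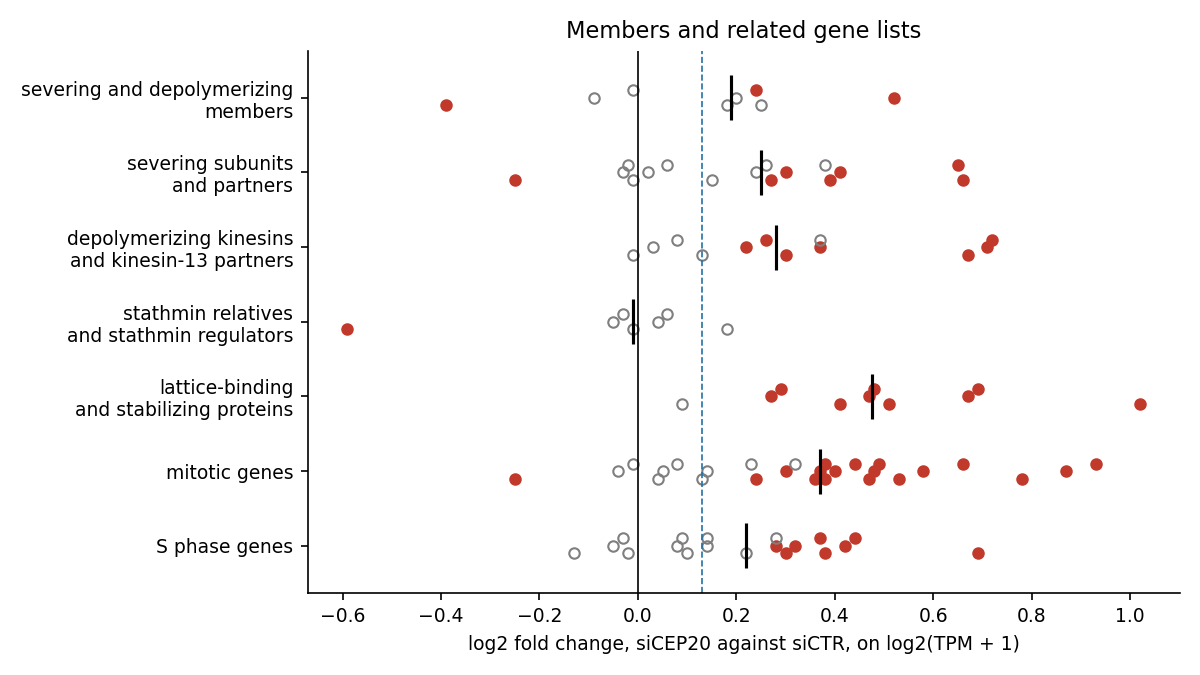
Log2 fold change (siCEP20 against siCTR) of each tested gene in 7 lists, with filled red points for genes that passed an adjusted p under 0.05 in limma, open grey points for the others, a black bar at each list's median and a dashed line at the median of all tested genes, 0.13. The 8 severing and depolymerizing factors spread to both sides of the dashed line, while 9 of 10 lattice-binding genes are filled and to the right of it.

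For each of the 8, the 2 protein-coding genes with the most similar pattern over the 6 libraries were taken from 12268 by Pearson's r of log2(TPM + 1). For KIF2A they were TENT2 and SMC4 (r = 0.999 each), for STMN3 MZT2B and H2AZ1 (0.998 each), for STMN1 NT5DC3 (0.993) and TOPBP1 (0.991), and for KATNAL1 GLIS2 and CCDC65 (0.998 each). For KATNA1 they were ARHGEF25 (0.999) and FMC1 (0.990), for FIGNL1 POLR1B (0.996) and RBL2 (0.992), for SPAST POLR3G (0.989) and SVBP (0.983), and for KIF2C CCDC159 (0.979) and TM7SF3 (0.971). With 6 libraries in 2 groups, genes that differ between groups reach a high r with one another. KIF2A had 1220 genes over an r of 0.95 and KIF2C had 7.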

How the data were processed

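RNA from 6 A549 samples was sequenced. Per the study's methods and the submitters' processing notes, reads were trimmed with fastp 0.20.1, aligned to hg38 with HISAT2 2.1.0 and quantified with StringTie 2.0, and the authors deposited TPM per Ensembl gene. Libraries were stranded (dUTP) per the methods. Whether quantification used strand, and the annotation release, are not given in the sources used here. The authors' DESeq2 analysis needs counts, which were not analysed here. No count, depth or counting interval can be had from TPM, so precision rests on the 3 replicates of a group.

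Genes whose mean reached 1 TPM were tested on log2(TPM + 1) with limma 3.58.1 in R 4.3.3 (eBayes with a trend, Benjamini-Hochberg adjustment), without rescaling. The main limma fit was tested on simulated data with 200 genes changed by a known amount. Python 3.11.15, pandas 2.3.3 and scipy 1.17.1 served for tables and exact permutation tests. GENCODE release 44 gave symbols, positions, transcript lengths and GC content (99.6% of genes matched), and RefSeq gave promoters. The correction for length and GC content was a loess curve (span 0.5) per library. All columns were mapped to samples by name. Named genes were the 8 members, CEP20, the 3 genes with the smallest adjusted p in each list and the 2 most similar genes per member. ZFYVE27, AURKB, KIF2B, PAK1, CDKN1B, MAPT, STMN2, STMN4, STMND1, CCNB1, CDC20, AKR1C1, AKR1B10 and DIMT1 were named after their values were seen. The members and lists were chosen with earlier results of these data known. The alternatives were other pseudocounts, filters, scalings and variance models, protein-coding genes only, the replicate block, and each library left out.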

Additional observations from a re-analysis of the deposited data

How the results depend on the processing

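KIF2A (log2 fold change 0.26 to 0.60, limma adjusted p 0.000838 to 0.0219), STMN3 (-0.57 to -0.36, adjusted p 0.00217 to 0.0316) and CEP20 (-1.06 to -0.84) kept their direction and passed in all 17 alternatives. The number of members higher went from 2 to 1, with STMN1 lost, under the replicate block, the length and GC correction, both of these together, quantile normalization, median-of-ratios scaling, a limma fit without a trend and no filter on TPM. It was 1 to 2 with each library left out, and 0 with a fold change over 1.5 required. The number lower went from 1 to 2, with SPAST added (-0.32 to -0.23), under both rescalings and the length and GC correction, with or without the replicate block, was 1 with each library left out, and was 0 with a fold change under 0.67 required. The members' median log2 fold change went from 0.19 to 0.06 with median-of-ratios scaling, 0.02 with quantile normalization and -0.0033 with the length and GC correction, with or without the replicate block. It was 0.12 to 0.21 with each library left out, 0.12 coming without siCTR replicate 1. Apart from the fold thresholds, the shares of all tested genes called under these alternatives are not given here.

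Directions turned for KATNAL1 (-0.06 after the length and GC correction, with or without the replicate block) and CDKN1B (-0.09 with median-of-ratios scaling, -0.04 with quantile normalization, -0.07 with the length and GC correction, with or without the block). With each library left out, KIF2C ran from -0.05 to 0.02 and turned without siCTR replicate 3 (0.02) or siCEP20 replicate 1 (0.00028). The difference in the KATNA1/KATNAL1 log2 ratio ran from -0.14 to 0.14 and turned without siCTR replicate 2 (0.14) or siCEP20 replicate 3 (0.02). The cause was not tested. ASPM, CD68, KATNAL2 and RRM1 each lost their call in 1 or 2 alternatives.

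Deviations from the group means correlated at 0.157, -0.0614 and -0.0623 between same-numbered samples of the 2 groups. Between differently numbered samples the correlation reached 0.17. With 3 samples a group these values cannot decide whether same-numbered samples were handled together. The replicate block left 1 member higher and 1 lower, with adjusted p of 0.00478 for KIF2A, 0.0188 for STMN3 and 0.0598 for STMN1. An alternative chosen after seeing the data left out the pseudogene MTATP8P1, which took 2.39% of TPM in siCTR replicate 1, 5.13% in siCEP20 replicate 1 and 0 elsewhere, and it changed no member's call. Depth is unknown, and with 3 samples a group the intervals of the members that did not pass still hold changes as large as 0.60 (log2).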
